A study of Mus musculus with 8 samples.

Results

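miR-9 is a miRNA whose hairpin gives a guide strand from each of its arms, mmu-miR-9-5p and mmu-miR-9-3p. Both were followed in the RNA-induced silencing complex (RISC) of mouse brain. Members were the lines of the deposited read table whose miRNA name was one of these 2 names, out of 895 miRNA names in the table. They comprised 644 of 47204 distinct read sequences, 428 for miR-9-5p and 216 for miR-9-3p. The libraries came from 4 5XFADtg Rubicon+/- mice (het) and 4 5XFADtg Rubicon-/- mice (ko). Both genotypes carry the 5XFAD transgene, which is driven by a neuronal promoter and leads to amyloid plaques, so the controls carry it too and no mouse without it was analysed here. Rubicon restrains autophagy, and het mice keep 1 intact copy while ko mice have none. The mice were females on a mixed C57BL/6J and SJL background, and per the methods brains were taken at 6 or 8 months, with 6 months named for this comparison in the text and no age in the labels. Cortex and hippocampus of each mouse were combined, so the cell types of both regions are mixed in a library. Argonaute proteins were captured with a GW182 peptide and their short RNAs sequenced. The study used these mice to ask whether toxic seeds in the RISC go along with neurodegeneration, and the comparison here asks how the miR-9 guides differ between the genotypes.

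miR-9 is one of the miRNAs most typical of the vertebrate nervous system. It is made in neural progenitors and neurons, where it is known to favour neuronal differentiation. Its 5p arm is known to target the transcriptional repressor REST and the nuclear receptor Tlx, and its 3p arm (once called miR-9*) the REST cofactor CoREST. A guide strand finds its mRNA targets mainly through its seed, the bases just after its 5' end. A read that starts 1 base later therefore carries another seed and can address other mRNAs.

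The mature strands and their precursors are shown because every result below refers to where a read starts and ends on them. The sequences are from RefSeq (GRCm38.p6), matched by name for both arms. In the mature strands, the capitals mark the seed (bases 2 to 8), and each strand is the same in all 3 hairpins.
mmu-miR-9-5p: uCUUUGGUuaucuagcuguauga
mmu-miR-9-3p: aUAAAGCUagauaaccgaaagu
The hairpins follow with both mature arms in capitals. They are identical within the arms and differ in the bases around them, so most reads cannot be assigned to 1 of the 3 genes.
Mir9-1: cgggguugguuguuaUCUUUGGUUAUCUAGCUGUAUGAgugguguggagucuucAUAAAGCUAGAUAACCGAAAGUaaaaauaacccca
Mir9-2: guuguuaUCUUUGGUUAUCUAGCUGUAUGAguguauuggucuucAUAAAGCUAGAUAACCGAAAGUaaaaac
Mir9-3: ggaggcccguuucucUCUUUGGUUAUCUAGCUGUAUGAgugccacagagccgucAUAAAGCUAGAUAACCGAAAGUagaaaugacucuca
All 3 lie on the plus strand. Mir9-1 (89 bases) is at chr3:88215598-88215686, within an intron of the noncoding gene Gm3764, and an annotated miRNA gene on the opposite strand, Gm25641, covers it. Mir9-2 (72 bases) is at chr13:83738814-83738885, where it overlaps annotated exons of the noncoding gene C130071C03Rik. Mir9-3 (90 bases) is at chr7:79505264-79505353, within an intron of its noncoding host gene Mir9-3hg.

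The depth of the 8 libraries ranged from 509839 to 19878058 reads, 39.0-fold, and both libraries over 5000000 reads were ko (replicates 1 and 2). All values were deposited as CPM, the reads with a given sequence scaled to 1000000 reads in the library. miRNAs made up between 95.8% and 97.3% of CPM. miR-9-5p itself was counted in 33014 to 1295157 reads per library and miR-9-3p in 9518 to 342960, so the widest 95% Wilson interval of a library's 5' isoform or untemplated share spanned 2.01 percentage points. Intervals cover counting error only, since the reads had no molecular identifiers. The labels give each library its own mouse, and the study's methods also give 4 mice of each genotype, but its main text on this comparison names fewer het mice, and the labels mark no library as left out.

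miR-9-5p was among the 5 most abundant miRNAs of the RISC in every library. Its level was 63736, 34997, 41839 and 55780 CPM in het replicates 1 to 4 and 63382, 65031, 45061 and 86547 CPM in ko replicates 1 to 4. The highest library was ko replicate 4 and the lowest het replicate 2, and the genotypes overlapped. Over the 8 libraries it took 5.95% ± 1.74 of miRNA CPM (mean ± SD, range 3.64% to 9.13%). By mean level it was the 3rd of all miRNAs at 57047 ± 16395 CPM, after miR-128-3p (68599 ± 16560 CPM) and miR-26a-5p (64915 ± 12615 CPM) and before the neuronal miR-124-3p (52509 ± 14832 CPM) and let-7c-5p (49398 ± 6251 CPM). The ranges of all 5 overlapped over the libraries, so their order is not fixed beyond the spread between mice.

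miR-9-3p, the minor arm, was nevertheless the 12th miRNA by mean level, at 17795 ± 3071 CPM and 1.85% ± 0.316 of miRNA CPM. It stood at 18375, 13741, 20704 and 13653 CPM in het replicates 1 to 4 and at 22562, 17220, 17574 and 18530 CPM in ko replicates 1 to 4. The het libraries were split into a higher and a lower pair, the ko libraries lay closer together, and the genotypes overlapped. Its neighbours by mean, let-7f-5p (20149 ± 5784 CPM) and miR-127-3p (15113 ± 4587 CPM), overlapped with it in range. Both arms together held 7.80% ± 1.86 of miRNA CPM, between 5.07% and 11.1%.

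The ratio of the arms compares the reads of the 2 strands in the RISC, summed over the 3 hairpins. Differences in how well the 2 sequences are ligated to adapters and read were not measured. miR-9-5p was above miR-9-3p in 8 of 8 libraries. The ratio of 5p to 3p was 3.47, 2.55, 2.02 and 4.09 in het replicates 1 to 4 and 2.81, 3.78, 2.56 and 4.67 in ko replicates 1 to 4, a mean of 3.24 ± 0.903. The highest ratio of either genotype was in its replicate 4 and the groups overlapped over most of their range. The difference on the log2 scale was 0.20 (exact two-sided permutation p = 0.514, or 0.84 once adjusted by Benjamini-Hochberg for 7 such measures). The difference was 0.0228 without het replicate 3 and 0.36 without het replicate 4. The smallest p that 4 against 4 libraries allow is 0.0286. Among 138 miRNAs with at least 10 CPM on each arm, miR-9 ranked 40th by the share of its minor arm (23.8%), but no other minor arm was as abundant as miR-9-3p.

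**Figure D1:**
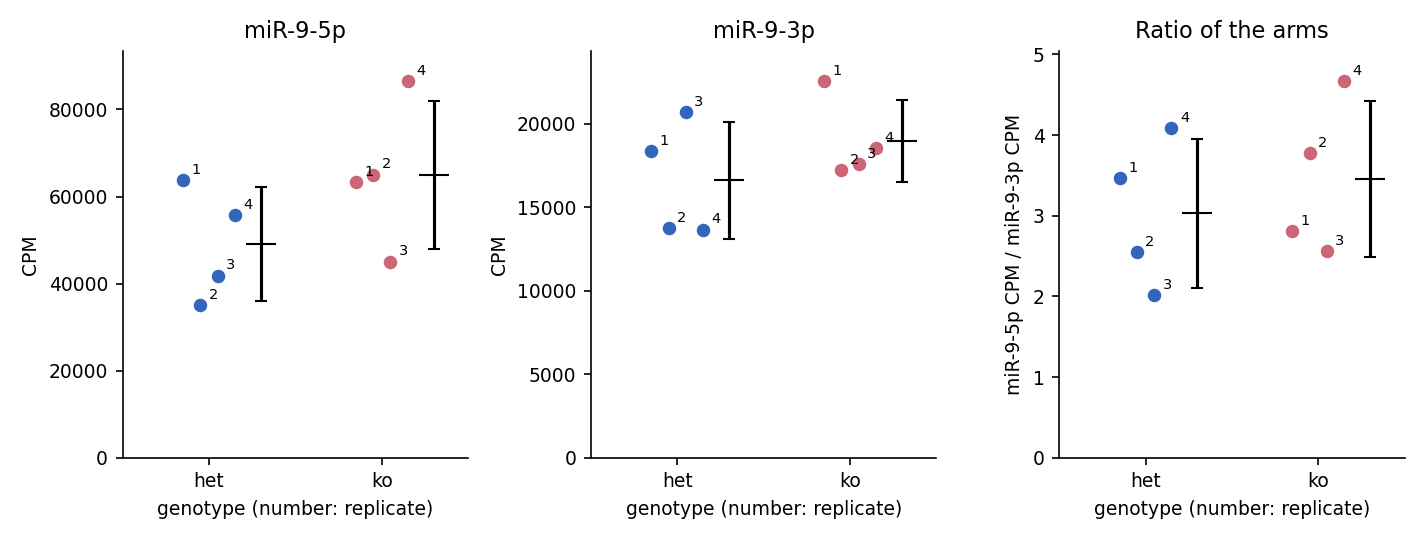
CPM of miR-9-5p (left) and miR-9-3p (middle) and the ratio of the arms (right) in each library, with het in blue, ko in red, replicate numbers beside the points, and the mean with SD as a black bar. The genotypes overlap in all 3 panels, with ko replicate 4 highest for miR-9-5p at 86547 CPM and for the ratio at 4.67.

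To compare the genotypes, each arm was fitted together with the other abundant miRNAs (463 in all, each averaging 10 CPM or more) in limma, on the scale log2(CPM + 1). Neither arm passed. miR-9-5p averaged 49088 ± 13044 CPM in het and 65005 ± 16975 CPM in ko in groups of 4. The log2 fold change was 0.41, with an SE of 0.25 and a limma adjusted p of 0.796. The 95% interval of the difference ran from -0.14 to 0.95, that is from 0.909-fold to 1.93-fold. miR-9-3p averaged 16619 ± 3505 CPM in het and 18972 ± 2457 CPM in ko in groups of 4. The log2 fold change was 0.21, with an SE of 0.22 and a limma adjusted p of 0.975. Its interval ran from -0.27 to 0.68, or from 0.83-fold to 1.60-fold. The log2 fold change of miR-9-3p was 0.12 without het replicate 2, het replicate 4 or ko replicate 1 and 0.43 after centring on the library median, and that of miR-9-5p was 0.26 without het replicate 2 or ko replicate 4 and 0.63 after centring. Centring raised the log2 fold change of every miRNA by 0.22, and their median from -0.09 to 0.13. In the whole test 6 of 463 miRNAs (1.3%) passed with a limma adjusted p below 0.05, and each of the 6 was lower in ko. With tissue lysates, fewer cells that hold a miRNA and less of it per cell cannot be told apart.

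**Figure D2:**
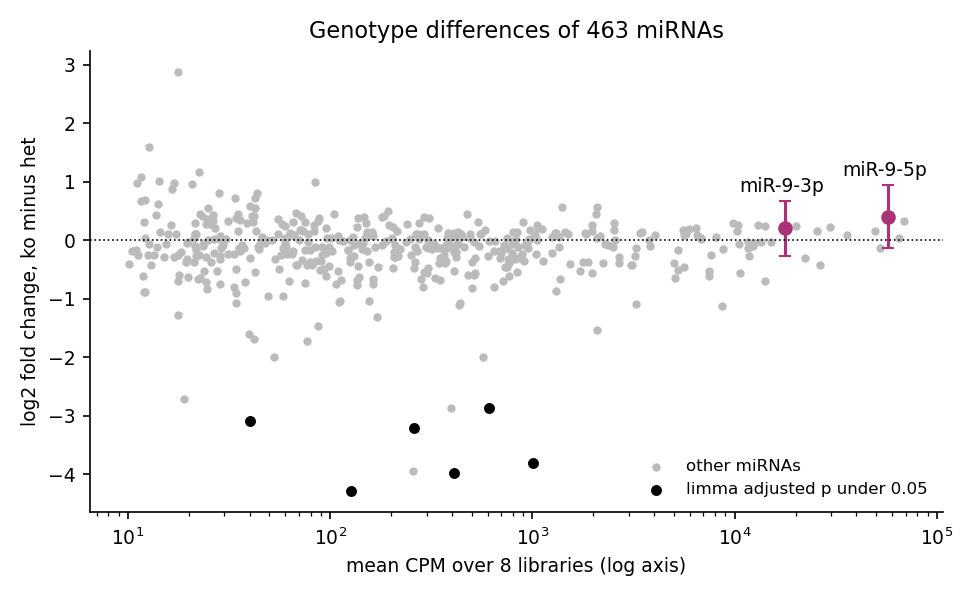
Log2 fold change (ko minus het) of 463 miRNAs against their mean CPM on a log axis. Black points passed limma at an adjusted p under 0.05, and the purple points with 95% intervals are miR-9-5p at 0.41 and miR-9-3p at 0.21, whose intervals both include 0.

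Other miRNAs of neurons and of the neurogenesis circuit around miR-9 were set beside it as a list of 12. All 12 were tested, 0 passed in either direction, 5 had a positive log2 fold change, and their median was -0.13 against -0.09 over all miRNAs. miR-124-3p, which promotes neuronal identity, had a log2 fold change of -0.13 (SE 0.28), and miR-128-3p, abundant in mature neurons, one of 0.33 (SE 0.24). let-7b-5p, which like miR-9 is known to target Tlx, had 0.09 (SE 0.28), and miR-29a-3p, which is known to rise as neurons mature, -0.43 (SE 0.26). The summed level of the list was 224180 to 263802 CPM in het and 222250 to 283885 CPM in ko, so the ranges overlapped.

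Marker miRNAs of other cells were measured in the same libraries. The 3 oligodendrocyte miRNAs (miR-219a-5p, miR-219a-2-3p and miR-338-3p) summed to 9473 to 15455 CPM in het and 6148 to 9935 CPM in ko, and 0 of 3 passed. Of 6 miRNAs of microglia and blood cells 0 passed, with sums of 4282 to 6671 CPM in het and 3437 to 5291 CPM in ko. Of 2 endothelial miRNAs 0 passed (6038 to 11057 CPM in het and 6112 to 11931 CPM in ko), and of 2 choroid plexus miRNAs 0 passed (2382 to 4665 and 2117 to 4483 CPM). In that last pair miR-211-5p was at 0 in at least 1 library. Of 8 miRNAs of epithelial and sensory cells (the miR-200 family and the miR-183 cluster) 6 were lower in ko and 0 higher, namely miR-200a-3p, miR-200b-3p, miR-429-3p, miR-96-5p, miR-182-5p and miR-183-5p with log2 fold changes from -4.29 to -2.86. These 6 were all of the miRNAs that passed among the 463 tested (1.3%), and the lists were chosen with earlier results of these data known. The sum of all 8 ran from 2567 to 9762 CPM in het and from 203 to 1829 CPM in ko, without overlap. Over the 8 libraries, the Pearson r of the summed list with miR-9-5p was -0.91 for choroid plexus, -0.70 for microglia and blood cells, -0.44 for epithelial and sensory cells, -0.42 for oligodendrocytes, -0.16 for endothelium and 0.24 for the neuronal list. With miR-9-3p it was -0.34, -0.88, -0.60, -0.46, -0.34 and 0.39 in the same order. These are descriptions over libraries that were each scaled to 1 total, and the part of these cells in the miR-9 levels was not tested.

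The start of a read sets its seed, and here the arms differed. Nearly all miR-9-5p started at the annotated base. Its main seed (here the 6mer of read bases 2 to 7, as in the deposited table), CUUUGG, held 92.3% ± 1.14 of the arm. The seed of reads that start 1 base later, UUUGGU, held 5.87% ± 0.867, and the seeds of the starts 2 and 3 bases later (UUGGUU and UGGUUA) 0.772% and 0.243%. Reads placed 1 base before the annotated start made up 0.184%.

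miR-9-3p by contrast was a mixture of 2 guides. Its main seed UAAAGC held 51.4% ± 1.76 of the arm, and AAAGCU, from the start 1 base later, held 47.9% ± 1.67. The share of AAAGCU was 47.6%, 48.9%, 45.3% and 49.9% in het replicates 1 to 4 and 46.6%, 47.0%, 47.7% and 50.1% in ko replicates 1 to 4. The split was thus close to even in each of the 8 mice. The seed of the start 2 bases later (AAGCUA) held 0.262%, and reads placed 1 base before the annotated start made up 0.065%.

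The most abundant reads show both patterns, and the capitals in them mark the 6mer seed (bases 2 to 7). In miR-9-5p the leading 3 reads share 1 start and differ only in their 3' end, the fourth ends in a U that no hairpin encodes, and the fifth starts 1 base later.
miR-9-5p, 23 nt: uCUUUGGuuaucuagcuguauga
miR-9-5p, 21 nt: uCUUUGGuuaucuagcuguau
miR-9-5p, 22 nt: uCUUUGGuuaucuagcuguaug
miR-9-5p, 22 nt with an added U: uCUUUGGuuaucuagcuguaugu
miR-9-5p, later start: cUUUGGUuaucuagcuguauga
Their mean levels over the 8 libraries were 22069, 15770, 9437, 2444 and 1888 CPM in this order. In miR-9-3p the 2 reads that follow the first start 1 base later.
miR-9-3p, 22 nt: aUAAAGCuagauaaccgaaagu
miR-9-3p, later start, 21 nt: uAAAGCUagauaaccgaaagu
miR-9-3p, later start, 22 nt: uAAAGCUagauaaccgaaagua
miR-9-3p, 23 nt: aUAAAGCuagauaaccgaaagua
miR-9-3p, later start, 23 nt: uAAAGCUagauaaccgaaaguaa
Their mean levels were 7271, 3422, 3311, 903 and 755 CPM. The last of these 5 is encoded by Mir9-1 and Mir9-2 but not by Mir9-3, where its last A could also be an addition. The scarcer starts 2 bases later are shown by the most abundant read of each arm, at 255 CPM for the 5p arm and 21.4 CPM for the 3p arm.
miR-9-5p, start 2 bases later: uUUGGUUaucuagcuguauga
miR-9-3p, start 2 bases later: aAAGCUAgauaaccgaaagu

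The 5' isoform share, the part of an arm outside its main seed, was compared between the genotypes, and neither arm passed the test. For miR-9-5p it was 6.90%, 8.52%, 7.83% and 6.44% in het replicates 1 to 4 and 9.63%, 7.20%, 8.72% and 6.61% in ko replicates 1 to 4. The het mean was 7.42% ± 0.934 and the ko mean 8.04% ± 1.38 (exact permutation p = 0.486, adjusted 0.84, n = 4 each). The difference of 0.623 percentage points was 0.0938 without ko replicate 1 and 1.10 without ko replicate 4. For miR-9-3p these means were 48.6% ± 2.15 and 48.6% ± 1.62 (exact permutation p = 0.971, n = 4 each). That last difference, -0.063 percentage points, was 1.01 without both libraries over 5000000 reads, and its sign also turned without het replicate 2 or 4 or without ko replicate 1 or 2 (at most 0.615).

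Few abundant miRNAs were split as evenly in these libraries. Over 278 miRNAs that averaged 100 CPM or more, the median 5' isoform share was 3.06%. miR-9-3p ranked 7th, and 3rd of the 98 that averaged 1000 CPM or more, after miR-136-3p (56.7%) and miR-323-3p (49.1%), both of which were far less abundant at 2087 and 1116 CPM. Below it among the 98, miR-411-5p stood at 48.2% (1044 CPM), miR-126a-3p at 43.2% (5618 CPM) and miR-101a-3p at 41.2% (10539 CPM). miR-9-5p ranked 81st of the 278. These ranks describe the libraries and were not tested.

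**Figure D3:**
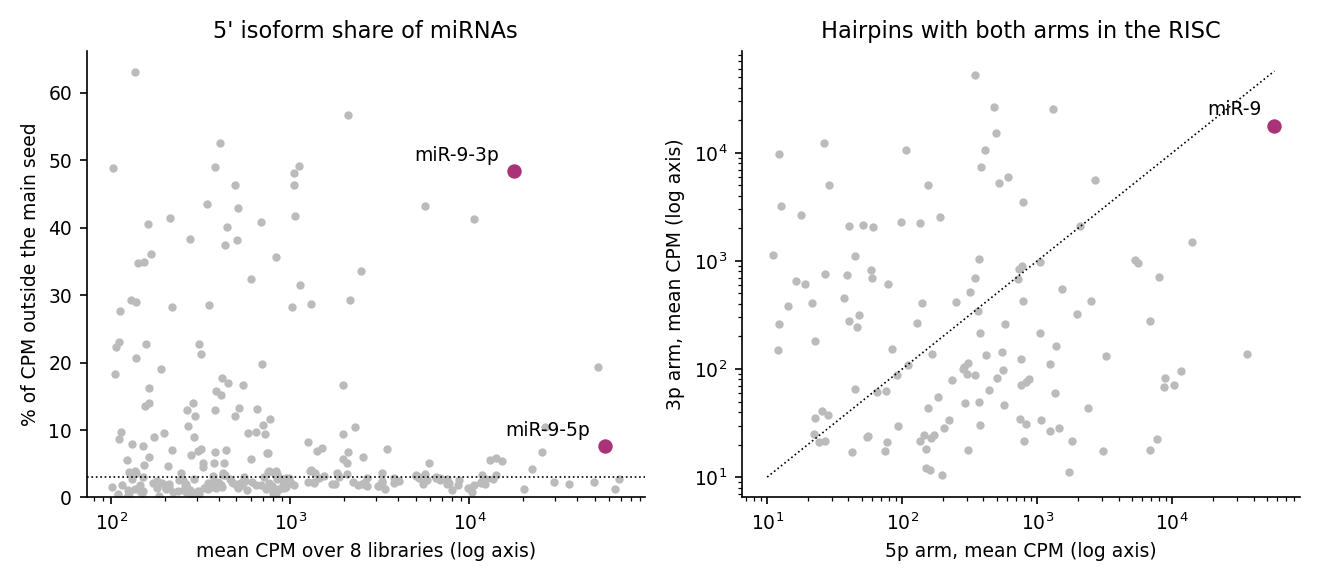
Left, share of CPM outside the main seed against mean CPM (log axis) for 278 miRNAs, with the median of 3.06% dotted. Right, mean CPM of the 3p arm against the 5p arm (log axes) for 138 miRNAs, with equality dotted. In purple, miR-9-3p stands at 48.4% on the left above every other miRNA at its level or higher, and miR-9 is farthest up of the hairpins below the line on the right.

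The 3' ends of the arms differed in another way. Over the 8 libraries, 42.6% ± 2.03 of miR-9-5p were templated reads that end at the annotated base, 28.0% ± 4.51 end 2 bases short of it and 18.5% ± 4.75 end 1 base short. Hardly any templated read went beyond the annotated end. miR-9-3p instead ran past it. Templated reads ended at the annotated base in 60.1% ± 1.85, 1 base beyond in 23.8% ± 0.677, 2 bases beyond in 5.04% ± 1.39 and 1 base short in 2.49% of the arm. Reads of miR-9-5p averaged 22.11 ± 0.038 nt in het against 22.09 ± 0.034 nt in ko (exact permutation p = 0.429, n = 4 each). The difference of -0.0189 nt was -0.0023 without ko replicate 2 and -0.0354 without het replicate 1. For miR-9-3p it was 21.92 ± 0.023 nt and 21.93 ± 0.017 nt (exact permutation p = 0.6, n = 4 each).

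The 2 shortened ends of miR-9-5p varied between mice. The end 1 base short held 18.9%, 26.7%, 24.4% and 15.04% in het replicates 1 to 4 and 16.3%, 17.1%, 16.4% and 12.8% in ko replicates 1 to 4. The end 2 bases short held 29.9%, 21.2%, 21.2% and 30.2% in het and 28.6%, 32.1%, 28.1% and 32.9% in ko. Het replicates 2 and 3 had most of the former and least of the latter, and the genotypes overlapped for both ends. The ratio of the ends 2 bases and 1 base short ran from 0.793 in het replicate 2 to 2.56 in ko replicate 4, and over the 8 libraries the shares had a Pearson r of -0.92, a description of parts of 1 total that share their library. These ends were singled out after their values were seen and were not tested.

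**Figure D4:**
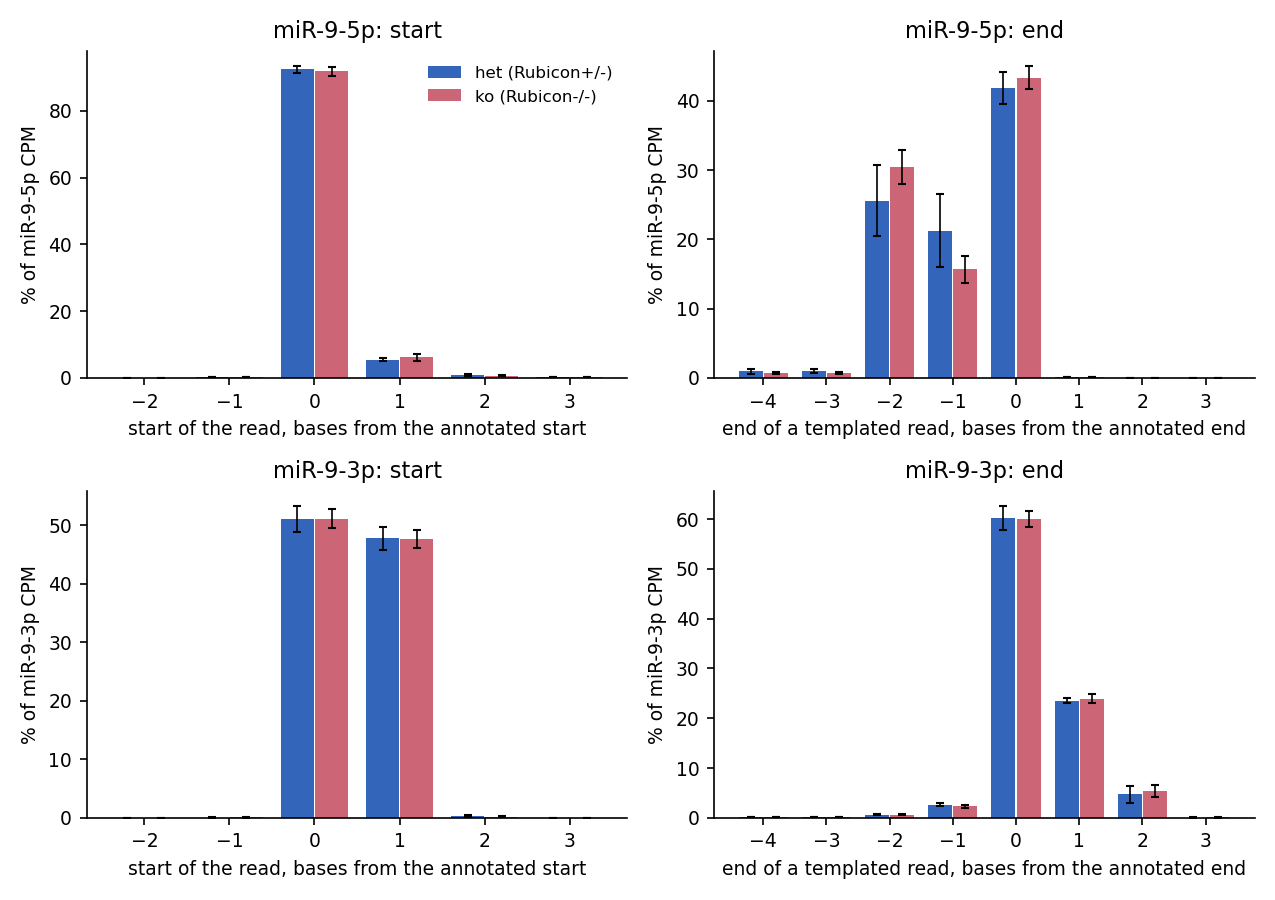
Share of each arm's CPM by the start (left) and by the end of templated reads (right), in bases from the annotated position, for miR-9-5p (top) and miR-9-3p (bottom). Bars are means of 4 libraries with SD, het in blue and ko in red. miR-9-5p has 1 start and 3 ends, miR-9-3p has 2 starts of nearly equal share.

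In miR-9-3p the later start went with a later end. Of reads with the annotated start, 79.5% ± 0.956 ended at the annotated base and 11.0% ± 0.476 were templated beyond it. Of reads that start 1 base later, 40.3% ± 1.85 ended at the annotated base and 48.4% ± 1.63 beyond it. The share beyond the end lay between 10.2% and 11.5% for the annotated start and between 44.8% and 50.0% for the later start, with no overlap over the 8 libraries. The base after the 3p arm is A in all 3 hairpins, so an A added to the annotated end cannot be told apart from a templated end beyond it. The mean length of the later-start reads was 21.7 ± 0.0445 nt against 22.1 ± 0.00959 nt. In miR-9-5p the later start also had more reads that end at the annotated base (56.9% ± 2.95 against 41.8% ± 2.07), but extension past it was rare for either start, at 0.232% and 0.0663%. The starts are compared within the same libraries and were chosen after their levels were seen, so no test is given.

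**Figure D5:**
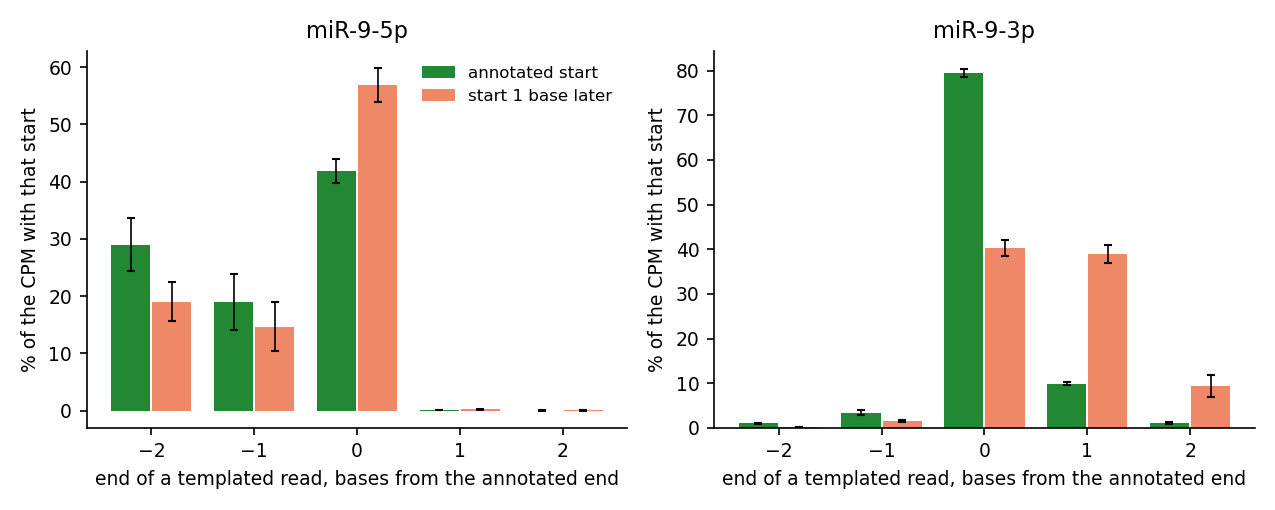
Ends of templated reads, in bases from the annotated end, as a share of the CPM with the same start, for the annotated start (green) and the start 1 base later (orange). Bars are means of 8 libraries with SD. In miR-9-3p the end 1 base beyond holds 9.90% of the CPM for the annotated start and 39.0% for the later start.

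Bases that no miR-9 hairpin encodes were found at the 3' end of 8.41% ± 0.788 of miR-9-5p in het, against 8.20% ± 0.674 in ko (exact permutation p = 0.771, adjusted 0.9, n = 4 each). The sign of that difference, -0.208 percentage points, turned without het replicate 4 (0.0176), ko replicate 2 (0.0224) or both libraries over 5000000 reads (0.116). For miR-9-3p the shares were 7.19% ± 0.370 and 6.58% ± 0.566 (exact permutation p = 0.143, adjusted 0.84, n = 4 each). That difference, -0.614 percentage points, was -0.134 without both libraries over 5000000 reads. A single U was the most frequent addition in both arms, at 5.01% ± 0.970 of miR-9-5p and 5.82% ± 0.525 of miR-9-3p. A single A made up 2.36% ± 0.336 of miR-9-5p and 0.305% of miR-9-3p. An A that follows the 3p arm is encoded by the hairpins, so additions of A there are counted as templated where they match. Reads with other mismatches made up 0.775% and 0.730% of the arms.

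Seeds were tested over all small RNAs that carry them. Of 990 seeds that averaged 10 CPM or more, 3 passed (0.303%), and 0 of them was a miR-9 seed. CUUUGG, of which miR-9-5p supplied 98.8%, had a log2 fold change of 0.40 with an SE of 0.26 (limma adjusted p = 0.926), and of 0.24 without het replicate 2 or ko replicate 4. UUUGGU, of which it supplied 99.1%, was at 3350, 2143, 2467 and 2784 CPM in het replicates 1 to 4 and at 4805, 3654, 3023 and 4477 CPM in ko replicates 1 to 4. Only ko replicate 3 was below the highest het library, and the fold change, 0.57 on the log2 scale with an SE of 0.25, did not pass (limma adjusted p = 0.843). UAAAGC, with 98.6% from miR-9-3p, had 0.21 (SE 0.24, limma adjusted p = 0.982), and 0.10 to 0.11 without het replicate 2, het replicate 4 or ko replicate 1.

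The later start of miR-9-3p gives it a seed that another brain miRNA also uses. AAAGCU came to 85.8% from miR-9-3p (79.1% to 91.8% over the libraries) and to 13.0% ± 5.17 from miR-320-3p, a miRNA made without Drosha. The latter's most abundant read is shown with this seed in capitals.
miR-320-3p: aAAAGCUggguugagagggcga
With this seed, miR-9-3p stood at 8491 ± 1293 CPM and miR-320-3p at 1308 ± 609 CPM. miR-22-3p added 7.22 CPM. In ko replicates 3 and 4 and in het replicate 4 miR-320-3p supplied between 17.7% and 19.8% of the seed. The het libraries averaged 9061 ± 1314 CPM of this seed and the ko libraries 10766 ± 1279 CPM. The log2 fold change of 0.25 had an SE of 0.22 (limma adjusted p = 0.960), and lay between 0.17 and 0.33 when single libraries were left out. Of the main seeds, reads without a miRNA name held 629.98 CPM of CUUUGG and 124.1 CPM of UAAAGC. Other named carriers were scarce: miR-9b-5p, from the opposite strand, gave 3.22 CPM of CUUUGG, and miR-340-5p gave 1.56 CPM of UAAAGC.

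The table gives each seed a viability, the mean viability in percent that 3 mouse cell lines kept after they received an siRNA of that seed in an earlier screen, where a low value marks a toxic seed. The main and second seeds of miR-9-5p had viabilities of 60.9 and 60.4, and those of miR-9-3p 50.6 and 54.3. A shift of 1 base thus hardly moved the score for the 5p arm and raised it slightly for the 3p arm. The scarce starts had higher scores, such as 83.3 for UUGGUU and 79.1 for AUAAAG. Weighted by CPM, miR-9-5p had a mean seed viability of 61.1 ± 0.0673 and miR-9-3p one of 52.5 ± 0.0848, on either side of the 56.4 ± 0.775 of all reads of these libraries.

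Single reads were tested in the same way. Of 3299 reads that averaged 10 CPM or more, 16 (0.485%) passed in limma after adjustment and 175 (5.3%) were below 0.05 before it. Of the 61 miR-9-5p reads tested, which hold 99.1% of the arm, 0 passed and 3 (4.92%) were below 0.05 before adjustment. All 3 were higher in ko, as were 37 (1.12%) of all reads tested, while 138 were lower. The count for both arms, 3, ranged from 0 to 8 when single libraries were left out. Of the 22 miR-9-3p reads tested, with 98.3% of the arm, 0 passed and 0 were below 0.05 before adjustment. The log2 fold change was positive for 48 of 61 and 16 of 22 reads, with medians of 0.35 and 0.20, while over all reads 48.4% were positive and the median was -0.02. The reads of an arm share their libraries and are not independent of each other.

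The 3 miR-9-5p reads with the smallest p-values are shown with their seeds in capitals, since 2 of them have the later start and the other the early start.
later start, 22 nt: cUUUGGUuaucuagcuguauga
early start, 22 nt: cUCUUUGguuaucuagcuguau
later start, 20 nt: cUUUGGUuaucuagcuguau
The first was at 1759, 1130, 1409 and 1504 CPM in het replicates 1 to 4 and at 2823, 2195, 1768 and 2518 CPM in ko replicates 1 to 4, so that its lowest ko library lay just above its highest het library. The fold change on the log2 scale was 0.68 with an SE of 0.27 (limma adjusted p = 0.776). The second, which among the hairpins matches Mir9-3 alone, went from 12.7 ± 12.0 to 23.4 ± 4.21 CPM (log2 fold change 1.17, limma adjusted p = 0.931), with het replicate 4 above all ko libraries. The third averaged 487.9 ± 180 CPM in het and 799.9 ± 244 CPM in ko with overlap (log2 fold change 0.74, limma adjusted p = 0.931). Among miR-9-3p reads the smallest p belonged to the 23 nt read with the later start shown above, at 633.4 ± 127 and 876.6 ± 187 CPM (log2 fold change 0.46, limma adjusted p = 0.973). The other 2 by this rule end in an added A, with either start, at 28.5 and 13.4 CPM and log2 fold changes of 0.57 and 0.63.

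Few reads could be assigned to a hairpin. Of miR-9-5p, 90.7% were templated reads that match all 3 hairpins. The reads that start before the arm hold bases that differ between the genes, and here Mir9-1 and Mir9-2 together (46.9 ± 18.2 CPM) and Mir9-3 (53.1 ± 19.5 CPM) were at similar levels. In ko the Mir9-3 reads were at 66.2 ± 15.1 CPM and in het at 40.1 ± 14.4 CPM, while the Mir9-1 and Mir9-2 reads were at 44.5 ± 13.0 and 49.3 ± 24.3 CPM. These sums overlapped between the genotypes and were not tested. Since early starts made up so little of the arm, they do not give the share of each gene in the mature miRNA. In miR-9-3p, reads that fit Mir9-1 and Mir9-2 but not Mir9-3 held 865 ± 219 CPM, nearly all through the A at their end, and reads that fit Mir9-3 alone 21.4 ± 8.65 CPM.

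Across the 8 libraries the arms did not follow each other closely, with a Pearson r of 0.35 between them on the log2(CPM + 1) scale. For miR-9-5p this placed its partner arm 62nd of 462 other miRNAs, whose median r was -0.16. For miR-9-3p it placed the partner arm 53rd of 462, with a median r of -0.23. The miRNAs with the most similar pattern to miR-9-5p were miR-450a-5p (r = 0.94), miR-344-3p (0.91), miR-344b-3p (0.88), miR-127-5p (0.88) and miR-412-5p (0.81). Those most similar to miR-9-3p were miR-411-3p (r = 0.81), miR-1264-3p (0.74), miR-21a-5p (0.71), miR-340-5p (0.71) and miR-218-5p (0.70). These values are descriptions over 8 libraries of very unequal depth that were each scaled to 1 total, chosen as the highest among many.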

How the data were processed

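Small RNAs bound to Argonaute were located on a gel beside size markers of 19 to 35 nt, and the deposited reads span 15 to 31 nt. The authors sequenced them, trimmed the reads (Trim Galore per the submitters' notes), removed rare reads and annotated the rest with SPOROS. The genome build and tool versions are not given in the sources used here. The deposited values are CPM per read sequence, and the seed viability is a deposited score, the authors' mean over 3 mouse cell lines. Whole reads were recovered for 100% of CPM values (within 0.001 CPM), which gave depths of 509839 to 19878058 reads. Every sequence had at least 8 reads in all, so rare isoforms were lost. All miR-9 names were on reads of 18 nt or longer.

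CPM was summed by arm, seed and read. Features averaging 10 CPM or more entered limma 3.58.1 (trend, robust) in R 4.3.3 as log2(CPM + 1), with the pseudocount of 1 CPM understating changes of low features, and Benjamini-Hochberg adjustment over each whole table. Per-library measures had exact two-sided permutation tests over all 70 splits, with adjustment over 7. Reads were placed on the hairpins by exact match, or as tailed where at least 15 nt matched and up to 3 bases followed. Scripts were tested on simulated data. The alternatives were pseudocounts of 0.1 and 10 CPM, other filters, centring, a replicate block, edgeR 4.0.16 and DESeq2 1.42.0 on recovered reads, and leaving out libraries. Named were the 5 most abundant reads of each arm, the leading read of its 3 main seeds, the 3 reads with the smallest p, the 5 miRNAs with the highest r, neighbours in level, other carriers of a seed and, of the lists, the 4 most abundant neuronal miRNAs and those that passed. The members, lists and tests were chosen with earlier results of these data known.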

Additional observations from a re-analysis of the deposited data

Results flagged for a closer look

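Reads that the table assigns to a miR-9 hairpin without the name of either arm were measured as well, as data outside the comparisons above. There were 581 such sequences, with 1271.4 ± 250.3 CPM per library (888 to 1707 CPM over 8 libraries), which is 1.70% of the level of both named arms. Of these, 544 are not exact pieces of a hairpin, and 453 of the 544 differ by 1 base from a named miR-9 read of the same length, at a median of 0.0432% of that read's level. A further 18 sequences are exact pieces of the 5p arm of 15 to 17 nt (126.4 CPM) and 19 are exact pieces of the 3p arm of 15 to 19 nt (75.1 CPM). No exact piece came from the loop or the flanks alone. In 22 groups of 4 libraries tested, 0 had a library that stood apart by Dixon's criterion, where chance gives about 1.1.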

How the results depend on the processing

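The log2 fold change of miR-9-5p stayed positive and short of the threshold under 17 alternatives, from 0.26 to 0.63 with adjusted p-values from 0.644 to 0.992 (limma, edgeR and DESeq2), and lay between 0.26 and 0.57 when single libraries were left out. That of miR-9-3p ranged from 0.12 to 0.43. The seeds kept their sign and stayed short of the threshold, and the ratio of the arms and the 5' isoform share of miR-9-5p kept their sign, but their sizes moved. Leaving out single libraries moved the ratio (log2) from 0.20 to between 0.0228 and 0.36, that share from 0.623 to between 0.0938 and 1.10 points, CUUUGG from 0.40 to between 0.24 (without ko replicate 4) and 0.56, and UAAAGC from 0.21 to between 0.10 (without het replicate 4) and 0.35. In addition, 0 miR-9 reads were called under any of the 17.

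Directions of 3 small differences were not stable, and the cause was not tested. Leaving out single libraries moved the difference in the 5' isoform share of miR-9-3p from -0.063 to between -0.981 and 0.615 percentage points, its length difference from 0.0069 to between -0.00203 and 0.0148 nt, and the untemplated share of miR-9-5p from -0.208 to between -0.575 and 0.0224 points. Without both libraries over 5000000 reads the first was 1.01 and the third 0.116. With main seed reads alone the second was -0.00325 nt. Lengths of miR-9-5p and untemplated shares of miR-9-3p kept their sign, but the former moved from -0.0189 to between -0.0354 and -0.0023 nt when single libraries were left out (-0.00263 without both deep libraries), and the latter from -0.614 to -0.134 points without both deep libraries.

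The count of miR-9 reads with an unadjusted p under 0.05 (alternatives added after seeing the data) was 3 in limma and ranged from 0 to 16. It was 16 with no filter, 6 with centring, 1 with a filter at 100 CPM and 0 without both libraries over 5000000 reads. Leaving out single libraries gave 0 (het replicate 2 or ko replicate 1), 1 (het replicate 3 or ko replicate 4), 6 (het replicate 4) and 8 (het replicate 1). With replicate numbers as a block, 10 miRNAs were called in place of 6. Same-numbered libraries correlated between -0.18 and 0.29 in their deviations, and 3 of 8 libraries correlated best with their own number. With so few libraries these values cannot decide whether the numbers pair the mice. Depth limited rare isoforms, since 3 reads were 5.79 CPM in the shallowest library.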
